A study of Mus musculus with 18 samples.

Results

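Ccr2 and 9 other genes that were higher in Tim-4low than in Tim-4high peritoneal macrophages of mice without a tumor were followed through all 6 groups of a mouse RNA-seq series. The 10 genes, of 23511 in the deposited gene table, were Ccr2, Itgax, Cd226, Klrk1, Sh2d1b1, Fcrls, Ear2, Ramp1, Hr and Ndnf. They were chosen by prior knowledge as markers of small macrophages and by large measured population gaps (Tim-4low over Tim-4high) in the no-tumor libraries, so the values of those libraries are given as a description and the genes were tested only between tumor groups. The no-tumor libraries still enter the shared fit behind those tests, and calls that change in the 12 tumor libraries alone are named. All 10 passed the filter on low counts.

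Macrophages from the mouse peritoneal cavity were sorted into Tim-4low and Tim-4high cells by their surface Tim-4, which binds phosphatidylserine and marks resident macrophages. The 6 groups of 3 libraries were these populations from tumor-bearing mice given anti-Tim-4, from tumor-bearing mice given an isotype antibody and from mice with no tumor. The tumor, MC38-LG, was placed in the peritoneal cavity. MC38 itself is a colon carcinoma line from mice. Mice received anti-Tim-4 on day 7, and the harvest followed on day 10. Mice with no tumor were harvested on the same day, and the labels give them no treatment and state no dosing day for the isotype antibody, and no strain, age or sex. The clones of the injected and of the sorting antibody are not stated in the labels. Nothing says that the 3 libraries of a group came from separate mice, so p-values measure the spread between these samples alone, and that spread may be technical. In bulk samples, fewer cells of a type and less RNA per cell cannot be told apart.

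The peritoneal cavity holds large resident macrophages, which depend on Gata6 and carry Timd4, and small macrophages, which are replenished by blood monocytes, depend on Irf4 and carry MHC class II. Monocytes leave the bone marrow through the chemokine receptor Ccr2, and recently recruited macrophages keep it for a time. The other genes encode a complement receptor chain (Itgax, CD11c), receptors best known from NK and T cells (Cd226, DNAM-1, and Klrk1, NKG2D), an adaptor of SLAM-family receptors (Sh2d1b1, EAT-2), an Fc receptor-like scavenger molecule (Fcrls), a secreted ribonuclease (Ear2), a chain of the receptor for the neuropeptide CGRP (Ramp1), a nuclear corepressor (Hr, hairless) and a secreted factor first described in neurons (Ndnf).

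All 7 defining macrophage genes (Adgre1, Csf1r, Cd68, Mertk, Fcgr1, Itgam and Lyz2) were detected in every library, and their summed level lay between 17000 and 44440 CPM (counts scaled to a common library size after TMM normalization). Library totals lay between 24530070 and 34110392 estimated counts. Isotype libraries 3 stood apart in both populations. The summed NK cell markers (6 genes) reached 45.4 CPM in the Tim-4low and 42.4 CPM in the Tim-4high library 3, against 4.31 to 9.42 CPM in the other 4 isotype libraries, and the neutrophil sum (5 genes) was 215 and 187 CPM in these libraries, against 30.8 to 54.1 CPM. Their T cell sums were raised as well. No-tumor libraries 1 held more B cell and mast cell RNA than their companions, with B cell sums of 728 CPM (Tim-4low) and 225 CPM (Tim-4high), against 63.4 to 93.8 CPM in the other no-tumor libraries, and mast cell sums of 97.5 and 63.0 CPM, against at most 7.81 CPM. Results that rest on these libraries are given with and without them.

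Upstream sequences of 4 of the genes are shown as examples of genes that differed in how they behaved with the tumor. In Tim-4low cells Klrk1 differed least between the isotype tumor and no tumor, Ramp1 was far lower with the tumor, and Ear2 and Sh2d1b1 lay between them. Each run is the 250 bases before the RefSeq start on GRCm38.p6, read 5′ to 3′ on the gene's strand. Capitals mark matches to the C/EBP motif TTGCNNAA, the RUNX motif TGTGGTT, the IRF motif GAAANNGAA and the AP-1 motif TGANTCA on either strand. The coordinates are chr6:129623865-129624114 on the minus strand for Klrk1, chr14:44102404-44102653 on the plus strand for Ear2, chr1:170277068-170277317 on the plus strand for Sh2d1b1 and chr1:91179572-91179821 on the plus strand for Ramp1.
Klrk1: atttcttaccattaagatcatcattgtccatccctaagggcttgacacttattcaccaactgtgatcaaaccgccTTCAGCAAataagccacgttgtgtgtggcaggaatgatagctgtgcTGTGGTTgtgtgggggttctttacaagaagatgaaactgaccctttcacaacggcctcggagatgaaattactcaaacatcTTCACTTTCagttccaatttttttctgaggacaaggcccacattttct
Ear2: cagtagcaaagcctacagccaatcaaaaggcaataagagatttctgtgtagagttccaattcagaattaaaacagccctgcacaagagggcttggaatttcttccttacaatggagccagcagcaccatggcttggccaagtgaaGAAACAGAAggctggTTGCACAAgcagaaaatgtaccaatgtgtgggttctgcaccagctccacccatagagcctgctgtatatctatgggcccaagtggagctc
Sh2d1b1: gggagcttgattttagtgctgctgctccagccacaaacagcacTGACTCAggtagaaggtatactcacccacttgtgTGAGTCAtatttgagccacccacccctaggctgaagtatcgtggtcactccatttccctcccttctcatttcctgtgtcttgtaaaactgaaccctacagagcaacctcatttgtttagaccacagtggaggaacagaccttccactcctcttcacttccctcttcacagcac
Ramp1: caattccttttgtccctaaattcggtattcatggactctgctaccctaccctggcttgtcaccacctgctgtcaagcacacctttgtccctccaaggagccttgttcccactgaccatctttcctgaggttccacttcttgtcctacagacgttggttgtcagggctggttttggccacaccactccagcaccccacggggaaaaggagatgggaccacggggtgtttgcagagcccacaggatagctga

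The upstream windows of Klrk1 and Ear2 each held a C/EBP and an IRF match, that of Klrk1 held a RUNX match as well, and that of Sh2d1b1 held 2 AP-1 matches. No match to these motifs, to the PU.1 motif GAGGAAGT or to TATAAA was found in the Ramp1 window. Windows of 7 of the 10 genes were searched (also Ccr2, Itgax and Fcrls), against 32851 RefSeq promoters of the same length. The C/EBP motif was in 9.56% of all promoters, IRF in 7.13%, RUNX in 4.4%, AP-1 in 6.75%, TATAAA in 12.4% and PU.1 in 2.44%. IRF was found in 3 of the 7 windows (Ccr2, Ear2 and Klrk1), AP-1 in 2 (Itgax and Sh2d1b1), C/EBP in 2, RUNX in 2 (Fcrls and Klrk1), TATAAA in 1 (Fcrls) and PU.1 in 0. A match describes these letters and shows no binding. Fcrls, whose window is not printed, was lower still by fold than Ramp1 with the isotype tumor and held matches. Ccr2, also not printed, changed less than Ramp1 and held a match. A link between matches and levels with the tumor was not tested.

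**Figure D1:**
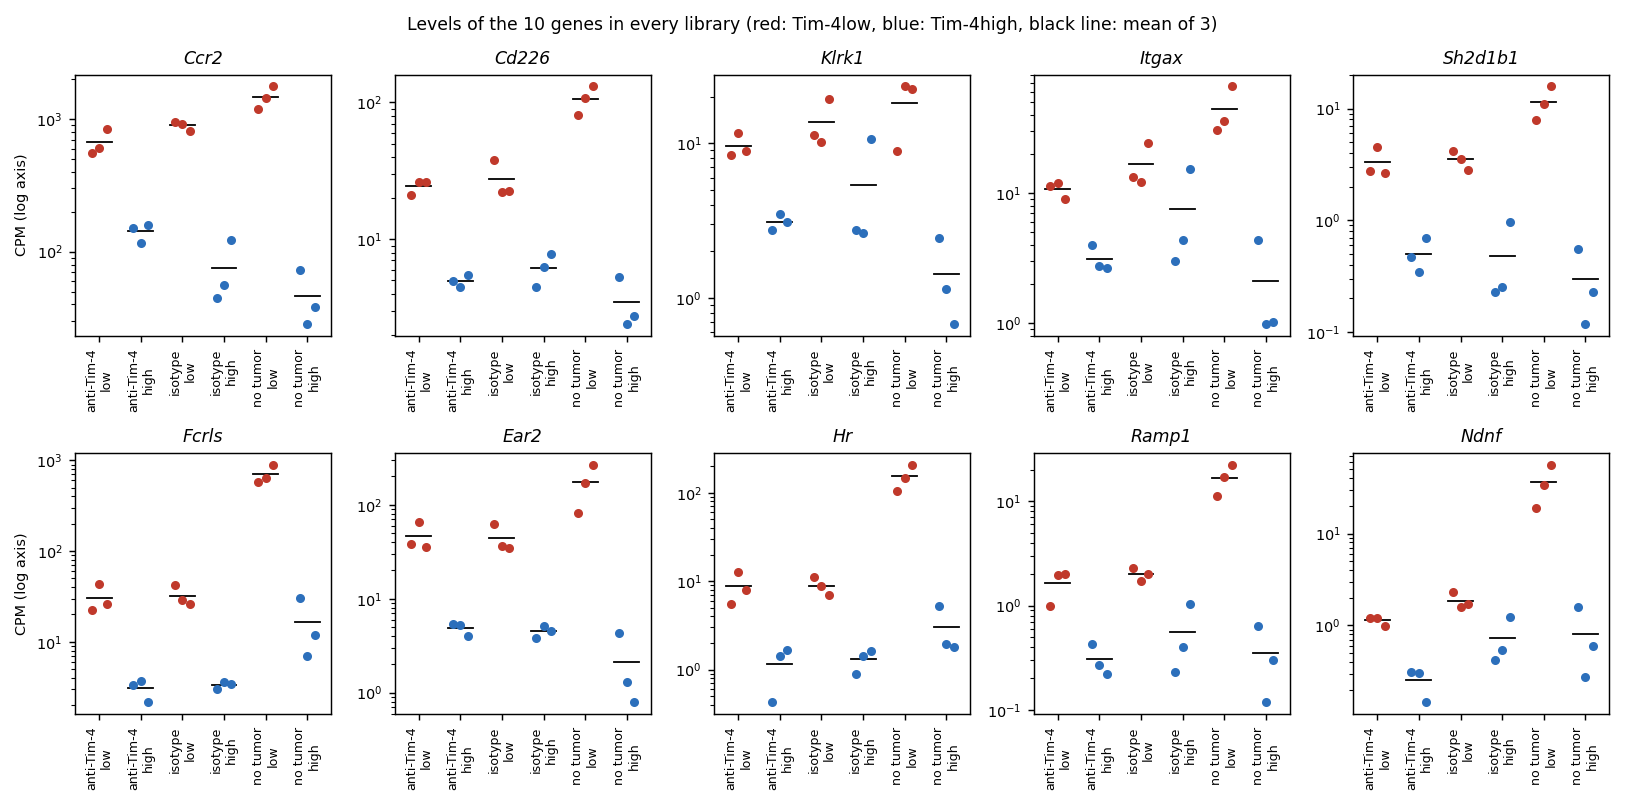
CPM of each of the 10 genes on a log axis in the 18 libraries, with 3 points and a mean line per group, Tim-4low in red and Tim-4high in blue. Every Tim-4low point lies above every Tim-4high point of the same condition, other than for Itgax and Klrk1 with isotype, and the no-tumor Tim-4low points of Fcrls, Hr, Ramp1 and Ndnf stand far above those of the tumor groups.

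Without a tumor, each of the 10 genes was higher in every Tim-4low library than in every Tim-4high library, with fitted differences between 12.8-fold for Klrk1 and 80.8-fold for Ear2. These are the values that chose the genes, so they carry no test. Of the 16609 genes tested, 12.8% were higher and 11.8% lower in Tim-4low cells at an adjusted p under 0.05 (edgeR's quasi-likelihood test with Benjamini-Hochberg adjustment), and nothing is read from that beside the members. By size of the difference, Ear2 ranked 9 and Klrk1 95 among all tested genes. Among the 8757 genes averaging 10 CPM or more in no-tumor Tim-4low cells, Ear2, Hr, Ramp1, Ndnf and Fcrls held ranks 1 to 5, Sh2d1b1 rank 8, Ccr2 12, Cd226 13, Itgax 15 and Klrk1 36. The rule states no threshold, so no gene lies just inside or outside one.

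Ccr2 (ENSMUSG00000049103, chr9:124101950-124113557, plus strand, mm10) was the most abundant of the 10 genes and binds the monocyte-attracting chemokines Ccl2, Ccl7 and Ccl12. Without a tumor it stood at 1196, 1444 and 1766 CPM in Tim-4low libraries 1 to 3, against 73.2, 28.5 and 38.1 CPM in Tim-4high ones. Itgax (ENSMUSG00000030789, chr7:128129547-128150657, plus strand) pairs with the integrin chain Itgb2. It had 30.7, 36.1 and 65.9 CPM in Tim-4low cells, against 4.33, 0.987 and 1.02 CPM in Tim-4high cells. Both genes, like all the other members, were highest in no-tumor Tim-4high cells in library 1, the number with the raised B cell and mast cell sums.

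Cd226 (ENSMUSG00000034028, chr18:89176967-89272229, plus strand) binds Pvr and Nectin2. It was at 81.3, 107 and 131 CPM in no-tumor Tim-4low cells, against 5.34, 2.41 and 2.75 CPM in Tim-4high cells. Klrk1 (ENSMUSG00000030149, chr6:129610323-129623864, minus strand) signals through the adaptors Hcst and, in mice, Tyrobp. Its levels were 8.93, 23.3 and 22.3 CPM in Tim-4low cells, against 2.43, 1.14 and 0.679 CPM in Tim-4high cells. Sh2d1b1 (ENSMUSG00000102418, chr1:170277320-170286769, plus strand) reached 7.88, 10.96 and 15.8 CPM in Tim-4low cells, against 0.555, 0.118 and 0.226 CPM in Tim-4high cells. In the same libraries the summed NK cell markers lay between 0.358 and 1.85 CPM in Tim-4low libraries and between 0.604 and 2.84 CPM in Tim-4high libraries without a tumor. The T cell sum was 10.5, 4.17 and 2.34 CPM in Tim-4low libraries 1 to 3, above Klrk1 in library 1 and below it in the other two. The part of these cells in the Klrk1 values was not tested.

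Fcrls (ENSMUSG00000015852, chr3:87250758-87263738, minus strand), in mice also a marker of microglia, had 572, 639 and 896 CPM in Tim-4low cells without a tumor, against 30.6, 6.91 and 11.8 CPM in Tim-4high cells. Ear2 (ENSMUSG00000072596, chr14:44102654-44103534, plus strand), of the family of eosinophil-associated ribonucleases, had 82.5, 171 and 267 CPM in Tim-4low cells, against 4.29, 1.30 and 0.792 CPM in Tim-4high cells. The summed eosinophil markers (4 genes) were highest in Tim-4low library 1, at 35.6 CPM, where Ear2 was lowest of the 3, and stood at 3.23 and 3.72 CPM in libraries 2 and 3. Counts of Ear2 carry an uncertainty of their own, since 41.5% of its 50-base stretches also occur in Ear10, Ear1 or Ear-ps2, and the authors' counting could split reads among them. The share was 13.4% for Sh2d1b1 (with Sh2d1b2), 8.02% for Itgax (with Itgad) and at most 1.91% for the other members.

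Hr (ENSMUSG00000022096, chr14:70552212-70573548, plus strand), a corepressor of nuclear receptors such as those of thyroid hormone and vitamin D, had 106, 146 and 207 CPM in no-tumor Tim-4low cells, against 5.27, 1.93 and 1.81 CPM in Tim-4high cells. Ramp1 (ENSMUSG00000034353, chr1:91179822-91225196, plus strand), which forms the CGRP receptor with Calcrl, had 11.2, 16.9 and 22.4 CPM in Tim-4low cells, against 0.635, 0.118 and 0.302 CPM in Tim-4high cells. Ndnf (ENSMUSG00000049001, chr6:65671590-65712326, plus strand), a secreted protein with fibronectin type III domains, had 19.0, 33.8 and 56.0 CPM in Tim-4low cells, against 1.57, 0.276 and 0.604 CPM in Tim-4high cells. The Tim-4high levels of Ramp1, Ndnf and Sh2d1b1 rest on few reads, between 3 and 42 estimated counts per library. Leaving out both no-tumor libraries 1, an alternative chosen after the marker sums were seen, gave a wider gap for the members, among them Ear2 with a log2 fold change of 7.71 in place of 6.34 and Ndnf with 6.65 in place of 5.46.

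Per length, in TPM (counts scaled for transcript length and library size, mean ± SD of 3 libraries), the order of levels in no-tumor Tim-4low cells was Ccr2 at 869 ± 138, Fcrls at 642 ± 136 and Ear2 at 498 ± 251. Cd226 followed at 74.9 ± 15.8 and Hr at 59.7 ± 17.7, then Itgax at 25.5 ± 10.8, Klrk1 at 20.4 ± 9.26, Ramp1 at 16.1 ± 5.03, Ndnf at 11.4 ± 5.33 and Sh2d1b1 at 9.41 ± 2.98. Ranges of neighbours in this order overlapped, other than those of Ear2 and Cd226 and of Hr and Itgax. The order was different in isotype Tim-4low cells, where Ccr2 stood at 488 ± 53.5, Ear2 at 118 ± 43.2, Fcrls at 27.2 ± 7.55, Cd226 at 17.8 ± 6.80 and Klrk1 at 14.4 ± 4.50 TPM. Itgax followed at 8.75 ± 3.09, Hr at 3.39 ± 0.856, Sh2d1b1 at 2.66 ± 0.557, Ramp1 at 1.70 ± 0.182 and Ndnf at 0.461 ± 0.00870 TPM. There, ranges overlapped from Fcrls through Cd226 and Klrk1 to Itgax and between Hr and Sh2d1b1, and the other neighbours were apart. In anti-Tim-4 Tim-4low cells the order was the same as with isotype, with Ccr2 at 372 ± 92.8 and Ndnf at 0.254 ± 0.0741 TPM. Ccr2 was also the most abundant of the 10 in Tim-4high cells, at 76.6 ± 12.9 TPM with anti-Tim-4, 37.3 ± 20.5 TPM with isotype and 27.3 ± 13.7 TPM without a tumor.

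With the tumor and isotype antibody, 7 of the 10 genes rose in Tim-4low over Tim-4high macrophages in edgeR, against a background of 11.3% of all tested genes that were higher and 12.9% that were lower. The 7 were Ccr2, Fcrls, Ear2, Sh2d1b1, Hr, Cd226 and Ramp1. DESeq2 called 9, with Klrk1 (adjusted p = 0.0267) and Ndnf (adjusted p = 0.0290) as well, and so did a fit of the 12 tumor libraries alone (adjusted p = 0.0359 for Klrk1 and 0.0161 for Ndnf). Itgax passed in neither. All 10 fitted differences were positive, and the median log2 fold change was 2.46, beside 0.01 over all tested genes. Libraries of the populations did not overlap for 8 of the 10, and did for Itgax and Klrk1. Such non-overlap was not counted over all tested genes.

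Ccr2 had 960, 918 and 811 CPM in isotype Tim-4low cells, against 45.0, 55.8 and 123 CPM in isotype Tim-4high cells. The populations were far apart in each library pair, and the fold was 11.99 (log2 3.58 ± 0.38, adjusted p = 4.585e-05, edgeR). Without both isotype libraries 3, the log2 fold change of Ccr2 was 4.21 (adjusted p = 0.000259). Itgax had 13.4, 12.2 and 24.2 CPM in Tim-4low cells, against 2.99, 4.34 and 15.3 CPM in Tim-4high cells. Library 3 was the highest in both populations, and the Tim-4high one lay above Tim-4low libraries 1 and 2 (log2 1.14 ± 0.55, adjusted p = 0.154). Klrk1 showed the same layout, with 11.4, 10.1 and 19.4 CPM in Tim-4low cells, against 2.76, 2.64 and 10.6 CPM in Tim-4high cells (log2 1.36 ± 0.50, adjusted p = 0.0627).

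Itgax and Klrk1 were thus high in the libraries with the raised NK, T cell, dendritic cell and neutrophil sums, and the part of those cells in the values was not tested. The dendritic cell sum (6 genes) was 46.6 CPM in the Tim-4low library 3 and 57.9 CPM in the Tim-4high library 3, against 10.9 to 13.1 CPM in the other isotype libraries. Without both isotype libraries 3, also chosen after the sums were seen, Itgax passed at log2 1.79 (adjusted p = 0.0334) and Klrk1 at 1.98 (adjusted p = 0.0109), and 9 of the 10 genes rose. With library number as a block, which pairs the populations within a condition, Itgax passed at 1.34 (adjusted p = 0.0220) and Klrk1 at 1.54 (adjusted p = 0.00782), again with 9 genes in all. Ndnf passed at 1.93 (adjusted p = 0.0356) when Tim-4high library 3 alone was left out, and Klrk1 (adjusted p = 0.0266) and Ndnf (adjusted p = 0.0121) passed without both no-tumor libraries 1.

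**Figure D2:**
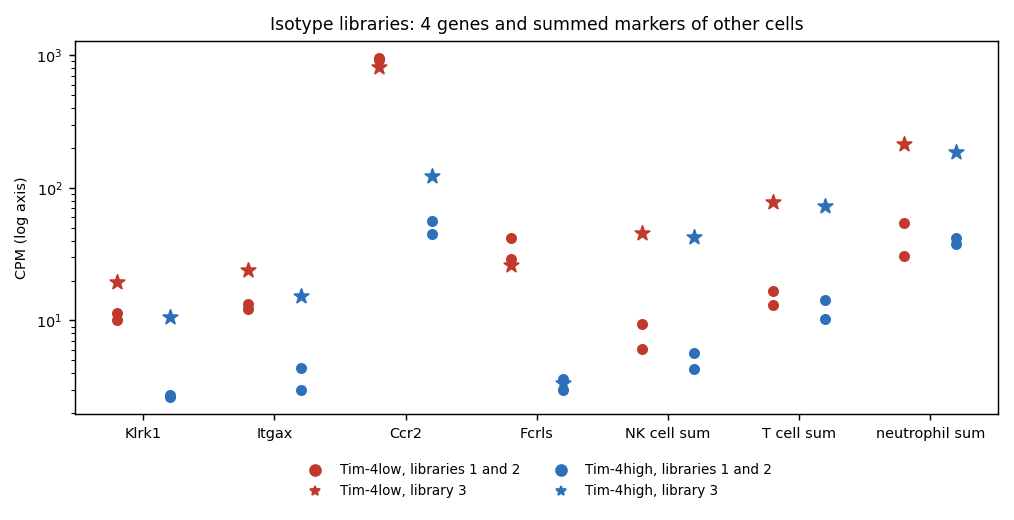
CPM on a log axis of 4 genes and of summed markers of NK cells, T cells and neutrophils in the 6 isotype libraries, with stars for libraries 3, Tim-4low in red and Tim-4high in blue. Klrk1 and Itgax follow the marker sums upward in libraries 3 (10.6 and 15.3 CPM in Tim-4high library 3), Ccr2 does so in Tim-4high cells alone (123 CPM), and Fcrls does not (3.39 CPM in Tim-4high library 3, against 2.99 and 3.62 CPM).

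Cd226 had 37.9, 22.3 and 22.4 CPM in isotype Tim-4low cells, against 4.45, 6.30 and 7.85 CPM in Tim-4high cells (log2 2.15 ± 0.28, adjusted p = 0.000133). Sh2d1b1 had 4.19, 3.56 and 2.85 CPM in Tim-4low cells, against 0.230, 0.254 and 0.963 CPM in Tim-4high cells (log2 2.87 ± 0.50, adjusted p = 0.000818). Neither pair of groups overlapped. Sh2d1b1 was highest among isotype Tim-4high cells in library 3, like Klrk1 and every other member but Fcrls and Ear2. The part of NK cells or other cells in these values was not tested. Fcrls had 41.8, 29.0 and 26.2 CPM in Tim-4low cells, against 2.99, 3.62 and 3.39 CPM in Tim-4high cells (log2 3.27 ± 0.45, adjusted p = 0.000176). Ear2 had 62.1, 36.8 and 34.2 CPM in Tim-4low cells, against 3.799, 5.14 and 4.54 CPM in Tim-4high cells (log2 3.30 ± 0.48, adjusted p = 0.000251). For these 2 genes the Tim-4high libraries lay close together, library 3 included.

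Hr had 11.004, 8.79 and 6.97 CPM in isotype Tim-4low cells, against 0.882, 1.41 and 1.62 CPM in Tim-4high cells (log2 2.77 ± 0.48, adjusted p = 0.000827). Ramp1 had 2.28, 1.70 and 1.98 CPM in Tim-4low cells, against 0.230, 0.399 and 1.04 CPM in Tim-4high cells (log2 1.84 ± 0.49, adjusted p = 0.0123). Ndnf had 2.31, 1.58 and 1.69 CPM in Tim-4low cells, against 0.422, 0.543 and 1.23 CPM in Tim-4high cells (log2 1.35 ± 0.52, adjusted p = 0.0724). None of the 3 overlapped, but Ramp1 and Ndnf are low in both populations. The Ramp1 call was lost without Tim-4high library 1 (adjusted p = 0.0633) or 2 (adjusted p = 0.0551).

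With the tumor and anti-Tim-4, 7 of the 10 genes (Ccr2, Fcrls, Ear2, Sh2d1b1, Hr, Cd226 and Ramp1) rose in Tim-4low over Tim-4high macrophages in edgeR, where 0.542% of all tested genes were higher and 0.849% lower. DESeq2 called 9 of the 10, a fit of the 12 tumor libraries alone 8, and a fit of the compared groups alone 10. All 10 genes were higher in every Tim-4low library than in every Tim-4high one, which was not counted over all tested genes. The median log2 fold change of the 10 was 2.36, beside -0.004 over all tested genes. Ccr2 showed the smallest fold among the 7 that passed, 4.71 (log2 2.23 ± 0.36, adjusted p = 0.0104, edgeR), with 560, 608 and 838 CPM in Tim-4low cells, against 150, 117 and 159 CPM in Tim-4high cells.

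Itgax had 11.4, 12.02 and 8.97 CPM in anti-Tim-4 Tim-4low cells, against 3.96, 2.73 and 2.63 CPM in Tim-4high cells (log2 1.79 ± 0.59, adjusted p = 0.167). Klrk1 had 8.34, 11.7 and 8.85 CPM in Tim-4low cells, against 2.76, 3.50 and 3.07 CPM in Tim-4high cells (log2 1.63 ± 0.52, adjusted p = 0.158). Both were well separated here, where the NK cell sum lay between 4.51 and 6.08 CPM in Tim-4low libraries and between 2.23 and 3.54 CPM in Tim-4high libraries. With library number as a block both passed (Itgax at 1.80 and Klrk1 at 1.62, each with an adjusted p of 0.0305), which makes 9 genes. Cd226 had 21.0, 26.1 and 26.2 CPM in Tim-4low cells, against 4.93, 4.50 and 5.52 CPM in Tim-4high cells (log2 2.29 ± 0.29, adjusted p = 0.00269). Sh2d1b1 had 2.77, 4.57 and 2.67 CPM in Tim-4low cells, against 0.466, 0.346 and 0.695 CPM in Tim-4high cells (log2 2.71 ± 0.49, adjusted p = 0.0150).

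Fcrls and Ear2 showed the widest gaps with anti-Tim-4. Fcrls had 22.7, 43.2 and 25.9 CPM in Tim-4low cells, against 3.38, 3.73 and 2.16 CPM in Tim-4high cells (log2 3.31 ± 0.46, adjusted p = 0.00348). Ear2 had 38.5, 66.1 and 35.3 CPM in Tim-4low cells, against 5.40, 5.19 and 3.99 CPM in Tim-4high cells (log2 3.26 ± 0.48, adjusted p = 0.00492). In both genes the high Tim-4low value was that of library 2. Hr had 5.45, 12.8 and 8.03 CPM in Tim-4low cells, against 0.427, 1.42 and 1.65 CPM in Tim-4high cells (log2 2.89 ± 0.49, adjusted p = 0.0104). Ramp1 had 0.994, 1.95 and 2.02 CPM in Tim-4low cells, against 0.427, 0.269 and 0.219 CPM in Tim-4high cells (log2 2.43 ± 0.53, adjusted p = 0.0347). Ndnf had 1.20, 1.21 and 0.997 CPM in Tim-4low cells, against 0.311, 0.308 and 0.146 CPM in Tim-4high cells (log2 2.14 ± 0.64, adjusted p = 0.124). Ndnf, at 4 to 8 estimated counts in each Tim-4high library, passed in DESeq2 (adjusted p = 0.00807), in the compared groups alone (adjusted p = 0.0177), in the 12 tumor libraries alone (adjusted p = 0.0220) and without both no-tumor libraries 1 (adjusted p = 0.0236).

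Calls in this comparison depended on single libraries. Without Tim-4high library 2, Ccr2 (2.12, adjusted p = 0.0722), Hr (adjusted p = 0.0668), Ramp1 (adjusted p = 0.1695) and Sh2d1b1 (adjusted p = 0.102) did not pass, and between 3 and 7 genes passed when any of the 18 libraries was left out. Hr was also lost without Tim-4high library 1 (adjusted p = 0.0565) or Tim-4low library 2 (adjusted p = 0.0546), Sh2d1b1 without the same libraries (adjusted p = 0.0711 and 0.0684), and Ramp1 without Tim-4high library 1 or 3 or Tim-4low library 2 or 3 (adjusted p between 0.0902 and 0.135).

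**Figure D3:**
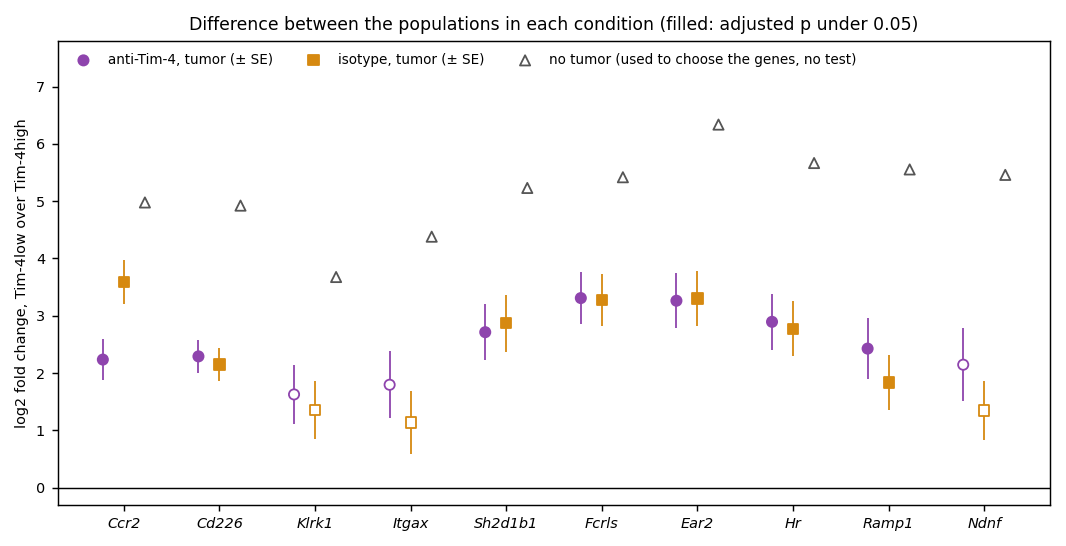
Log2 fold change of Tim-4low over Tim-4high cells for each gene with anti-Tim-4 (circles), isotype (squares) and no tumor (triangles), with bars of 1 standard error for the tested tumor groups and filled points at an adjusted p under 0.05. The no-tumor gaps (3.68 to 6.34), which chose the genes, lie above those of both tumor groups, and Ccr2 is the gene whose anti-Tim-4 point (2.23) lies farthest below its isotype point (3.58).

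Within library pairs the median gap of the 10 genes was narrower in every tumor pair than in every no-tumor pair. Single genes did not all follow. In isotype pair 1 the ratio was 21.3 for Ccr2, 18.2 for Sh2d1b1 and 4.12 for Klrk1. These ratios were 16.3, 14.2 and 3.68 in no-tumor pair 1, while the remaining members were narrower in the isotype pair. Large no-tumor gaps chose these genes, so smaller gaps elsewhere follow in part from that choice, and this part was not measured. The median over the 10 genes of the Tim-4low to Tim-4high CPM ratio was 4.07, 6.52 and 5.07 in anti-Tim-4 pairs 1 to 3, 11.2, 5.24 and 2.91 in isotype pairs and 15.8, 84.0 and 72.0 in no-tumor pairs. Timd4, which encodes the sorted protein, had a Tim-4low to Tim-4high ratio of 0.132, 0.134 and 0.0704 in the anti-Tim-4 pairs, 0.0454, 0.0374 and 0.269 in the isotype pairs and 0.123, 0.0140 and 0.0147 in the no-tumor pairs. In isotype pair 3 and no-tumor pair 1 a high Timd4 ratio and the lowest member ratio of the condition came together. With anti-Tim-4, pairs 1 and 2 had nearly the same Timd4 ratio (0.132 and 0.134), with the lowest and the highest median member ratio of that condition (4.07 and 6.52). The part of sort purity in the member ratios was not tested.

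Between the isotype tumor and no tumor, the fitted values of all 10 genes fell in Tim-4low cells, while 7 of the 10 rose in Tim-4high cells. The genes were chosen for being high in no-tumor Tim-4low cells, so part of the fall follows from that choice. This part was not measured. With the isotype tumor 9 of the 10 genes were lower in every Tim-4low library than in every no-tumor one, and Klrk1 overlapped. At an adjusted p under 0.05 (edgeR), 25.2% of all tested genes were higher and 24.6% lower, which is a different measure. How many of all tested genes did not overlap was not counted. No test of the 10 genes is given, because the no-tumor libraries chose them for being high there. Fcrls was 21.7-fold lower in isotype tumor Tim-4low cells, Ndnf 19.5-fold, Hr 17.2-fold and Ramp1 8.45-fold. Ear2 was 3.91-fold lower, Cd226 3.87-fold, Sh2d1b1 3.27-fold and Itgax 2.67-fold, while Ccr2 was 1.64-fold and Klrk1 1.33-fold lower. The median log2 fold change was -1.96, beside -0.02 over all tested genes.

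The genes thus spread widely in how much of their no-tumor level was left. Fcrls averaged 32.3 ± 8.36 CPM in isotype tumor Tim-4low cells, against 702 ± 171 CPM in no-tumor Tim-4low cells (SD, n = 3 each). Ccr2 averaged 896 ± 76.6 CPM, against 1469 ± 286 CPM in the same groups. In anti-Tim-4 Tim-4low cells the mean of Fcrls was 22.96-fold and that of Ndnf 31.9-fold lower than in no-tumor Tim-4low cells. The anti-Tim-4 and isotype groups are each set against the same no-tumor libraries.

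**Figure D4:**
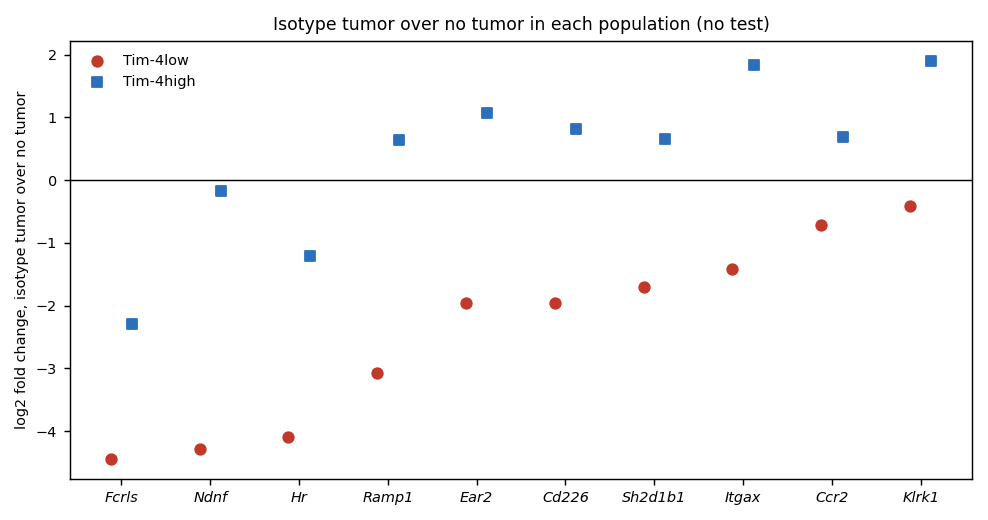
Log2 fold change of isotype tumor over no tumor for each gene, in Tim-4low (red circles) and Tim-4high cells (blue squares), ordered by the Tim-4low value and given without a test. All 10 Tim-4low values are negative, from -4.44 for Fcrls to -0.42 for Klrk1, and 7 of the 10 Tim-4high values are positive.

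In Tim-4high cells the picture was mixed. Fcrls was lower in every isotype tumor library than in every no-tumor library (log2 fold change -2.30), and so was Hr (-1.21). Klrk1 was higher in every isotype tumor library (1.90), and the other 7 genes overlapped, with log2 fold changes from -0.17 for Ndnf to 1.83 for Itgax. At an adjusted p under 0.05 (edgeR), 27.3% of all tested genes were higher and 24.1% lower, which is not a share of genes without overlap. Fcrls and Hr were therefore lower with the tumor in both populations. Without Tim-4high isotype library 3, Ramp1 stood at -0.17 in place of 0.64 and Sh2d1b1 at -0.33 in place of 0.65, and without Tim-4high no-tumor library 1, Ndnf stood at 0.71 in place of -0.17 and Ear2 at 2.09 in place of 1.07. With each single library left out, values ran up to 1.36 for Ramp1 and up to 1.43 for Sh2d1b1. They ran from 0.92 to 2.53 for Klrk1 and from 0.79 to 2.89 for Itgax, whose highest isotype values were those of library 3. Ccr2 averaged 142 ± 22.2 CPM with anti-Tim-4, 74.8 ± 42.5 CPM with isotype and 46.6 ± 23.5 CPM without a tumor in Tim-4high cells. All 3 anti-Tim-4 values (117 to 159 CPM) were above the no-tumor values (28.5 to 73.2 CPM), while those of isotype overlapped both. Without both isotype libraries 3, the log2 fold change of Ccr2 over no tumor was 0.11 in place of 0.68.

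Between anti-Tim-4 and isotype in Tim-4low cells, 0 of the 10 genes passed the test in edgeR or in DESeq2, and 0 had an unadjusted p under 0.05 in either tool, where 0.223% of all tested genes were higher and 0.102% lower. Ccr2 averaged 669 ± 149 CPM with anti-Tim-4 and 896 ± 76.6 CPM with isotype (SD, n = 3 each, log2 -0.42 ± 0.34, adjusted p = 0.639). The Ccr2 groups overlapped. Itgax (-0.62 ± 0.54, adjusted p = 0.666) and Ndnf (-0.71 ± 0.48, adjusted p = 0.563) were lower in every anti-Tim-4 library, and the other 8 genes overlapped, with log2 fold changes from -0.51 for Klrk1 to 0.07 for Ear2. For Itgax the nearest libraries were close, at 12.025 CPM with anti-Tim-4 and 12.16 CPM with isotype. How many of all tested genes were separated in this way was not counted. A p that misses the threshold does not show that the levels were alike.

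In Tim-4high cells, 0 of the 10 genes passed between anti-Tim-4 and isotype in edgeR or DESeq2, where 4.30% of all tested genes were higher and 3.67% lower. In both tools 3 genes had an unadjusted p under 0.05, Ccr2, Itgax and Ndnf. Ccr2 was 1.90-fold higher with anti-Tim-4 (log2 0.93 ± 0.35, adjusted p = 0.108). Its anti-Tim-4 libraries (150, 117 and 159 CPM) overlapped the isotype ones (45.0, 55.8 and 123 CPM) only through isotype library 3, whose NK cell and dendritic cell sums were 42.4 and 57.9 CPM and whose Timd4 level was 280.4 CPM. The part of other cells in that Ccr2 value was not tested. Ccr2 passed without that library (1.49, adjusted p = 0.0426) and without both isotype libraries 3 (1.496, adjusted p = 0.0473).

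Ndnf was lower in every anti-Tim-4 Tim-4high library than in every isotype one (log2 -1.51 ± 0.68, adjusted p = 0.176), at 4 to 8 against 11 to 32 estimated counts per library, and passed in a fit of the 12 tumor libraries alone (adjusted p = 0.0446). Separation of the libraries was not counted over all tested genes here either. Itgax stood at -1.28 ± 0.59 (adjusted p = 0.187), with its highest isotype value again in library 3. The authors' deposited table for this comparison gives Ccr2 a fold of 1.901 with an FDR of 0.185, Ndnf a fold of -2.88 with an FDR of 0.1145 and Itgax a fold of -2.43 with an FDR of 0.229. In the authors' deposited table the lowest FDR among the 10 genes was that of Ndnf.

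The test of whether the population gap itself differed between anti-Tim-4 and isotype gave 0 calls among the 10 genes in edgeR and in DESeq2, where 1.67% of all tested genes were higher and 1.26% lower. Ccr2 was the 1 gene with an unadjusted p under 0.05 in either tool. Its gap was 2.55-fold narrower with anti-Tim-4 (log2 -1.35 ± 0.49, adjusted p = 0.136). The other 9 values lay between -0.16 for Sh2d1b1 and 0.80 for Ndnf, with adjusted p-values of at least 0.673. With library number as a block Ccr2 passed, at -1.496 with an adjusted p of 0.0439. Without both isotype libraries 3 it stood at -1.98 (adjusted p = 0.0629). Both parts of the Ccr2 difference ran the same way, a lower mean in Tim-4low and a higher mean in Tim-4high cells with anti-Tim-4, and neither passed on its own.

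Genes with a profile like that of Ccr2 were sought among 8877 genes by Pearson correlation of log2(CPM + 1), given as a description because the libraries share the population split. Over all 18 libraries, Dna2 (r = 0.973), Plbd1 (0.969), Esyt1 (0.964), Map4k1 (0.961) and Tnip3 (0.960) held ranks 1, 3, 4, 5 and 6. Over the 12 tumor libraries, ranks 1 to 5 were held by Map4k1 (0.989), Rtl5 (0.987), Nxf1 (0.985), Mapkapk3 (0.982) and Samhd1 (0.982). Ear2 (0.956), Cd226 (0.937), Sh2d1b1 (0.932) and Klrk1 (0.905) followed Ccr2 most closely among the members over 18 libraries, and Ndnf (0.682), Fcrls (0.764), Hr (0.793) and Ramp1 (0.802) least. Over the tumor libraries, Fcrls reached 0.920 (rank 183) and Hr 0.907 (rank 234), while Klrk1 stood at 0.819 (rank 823) and Itgax at 0.741 (rank 1463). Many other genes thus lay closer to Ccr2 there. Plbd1, which encodes a phospholipase B-like protein, shows the profile in CPM: 158, 230 and 246 in anti-Tim-4, 263, 274 and 269 in isotype and 269, 293 and 409 in no-tumor Tim-4low cells, beside 90.4, 89.2 and 116 in anti-Tim-4, 27.6, 38.2 and 62.1 in isotype and 29.2, 14.8 and 12.6 in no-tumor Tim-4high cells.

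Partners of the 10 genes were taken from 11 lists with 103 genes, 85 of them tested. The background for the counts of these lists is the share of all tested genes that passed, which for the isotype tumor over no tumor was 25.2% higher and 24.6% lower in Tim-4low cells and 27.3% higher and 24.1% lower in Tim-4high cells. The Ccr2 ligands Ccl2, Ccl7 and Ccl12 rose with the isotype tumor over no tumor in both populations. In Tim-4low cells Ccl2 had 63.8, 87.1 and 81.0 CPM with the isotype tumor, against 4.26, 7.61 and 18.7 CPM without a tumor (log2 2.91 ± 0.55, adjusted p = 0.000467, edgeR). In Tim-4high cells it had 36.7, 50.3 and 33.6 CPM with the tumor, against 2.32, 6.95 and 20.5 CPM without (2.02 ± 0.55, adjusted p = 0.00610). Ccl7 rose by log2 3.82 ± 0.85 in Tim-4low (adjusted p = 0.00166) and 3.20 ± 0.85 in Tim-4high cells (adjusted p = 0.00519). Ccl12 had 8.12, 11.7 and 8.70 CPM in isotype tumor Tim-4low cells, against 0.0698, 0.0626 and 0.165 CPM without a tumor (adjusted p = 1.113e-07).

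With anti-Tim-4 over isotype in Tim-4low cells the ligands were lower without passing: Ccl2 had 27.1, 36.4 and 25.002 CPM with anti-Tim-4 (log2 -1.39 ± 0.52, adjusted p = 0.287), Ccl7 stood at -1.79 ± 0.76 (adjusted p = 0.358) and Ccl12 at -1.23 ± 0.34 (adjusted p = 0.136). No anti-Tim-4 library overlapped the isotype ones for these ligands, a separation that was not counted over all tested genes. Ackr2, a scavenging receptor for such chemokines, fell in Tim-4low cells with the tumor, with 0, 0.0630 and 0.0959 CPM, against 2.86, 0.188 and 0.551 CPM without a tumor (adjusted p = 0.00410). Its highest no-tumor value was that of library 1, which had the raised B cell and mast cell sums. The other no-tumor libraries also lay above the tumor ones, but at levels near 0.

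The ligands of Cd226 differed as well. Nectin2 rose with the isotype tumor by log2 1.57 ± 0.19 in Tim-4low (adjusted p = 6.669e-06) and 2.52 ± 0.19 in Tim-4high cells (adjusted p = 8.754e-08). Pvr rose in Tim-4low cells (0.92 ± 0.14, adjusted p = 4.744e-05) and stood at 0.03 ± 0.13 in Tim-4high cells (adjusted p = 0.873). Of the 4 tested genes of this list, 4 rose in Tim-4low and 2 in Tim-4high cells. The others were Tigit and Cd96, receptors of T and NK cells for the same ligands, with 2.85 and 3.23 CPM in Tim-4low isotype library 3 and at most 0.761 and 0.698 CPM in libraries 1 and 2. The Cd96 call was lost without that library (adjusted p = 0.338) and without Tim-4low no-tumor library 2 (adjusted p = 0.115) or 3 (adjusted p = 0.130), as was that of Tigit in Tim-4high cells without Tim-4high isotype library 3 (adjusted p = 0.461).

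Of the 5 tested genes of the Klrk1 list, 2 rose and 1 fell in Tim-4low, and 4 rose and 1 fell in Tim-4high cells with the isotype tumor, beside all-gene shares of 25.2% higher and 24.6% lower in Tim-4low and 27.3% higher and 24.1% lower in Tim-4high cells. The ligand Raet1d had 2.87, 2.42 and 3.83 CPM in isotype tumor Tim-4low cells, against 0.349, 0.470 and 0.299 CPM without a tumor (3.02 ± 0.30, adjusted p = 1.089e-06), and rose by 2.39 ± 0.29 in Tim-4high cells (adjusted p = 6.471e-06). The adaptor Hcst fell, by 0.59 ± 0.21 on the log2 scale in Tim-4low (adjusted p = 0.0276) and by 0.85 ± 0.21 in Tim-4high cells (adjusted p = 0.00274), and the Tim-4low call was lost without Tim-4low isotype library 1 or 2 or Tim-4low no-tumor library 2 or 3 (adjusted p between 0.0526 and 0.133). Tyrobp, the other adaptor, rose in Tim-4high cells (0.41 ± 0.09, adjusted p = 0.00115). The ligand and Tyrobp thus rose in Tim-4high cells, and Hcst fell.

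Calcrl, the partner of Ramp1, fell with the isotype tumor in Tim-4low cells (log2 -0.77 ± 0.17, adjusted p = 0.00159) and in Tim-4high cells (-1.92 ± 0.17, adjusted p = 4.266e-07). It had 11.5, 12.7 and 10.4 CPM in isotype tumor Tim-4low cells, against 23.5, 20.4 and 15.1 CPM without a tumor. Without a tumor it was lower in Tim-4low than in Tim-4high cells (-1.35 ± 0.17, adjusted p = 3.765e-05). Ramp3, which also pairs with Calcrl, fell in Tim-4low cells with the tumor (-1.41 ± 0.40, adjusted p = 0.00818). The CGRP genes Calca and Calcb were at or near 0 in all libraries, at most 0.160 and 0.110 CPM.

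**Figure D5:**
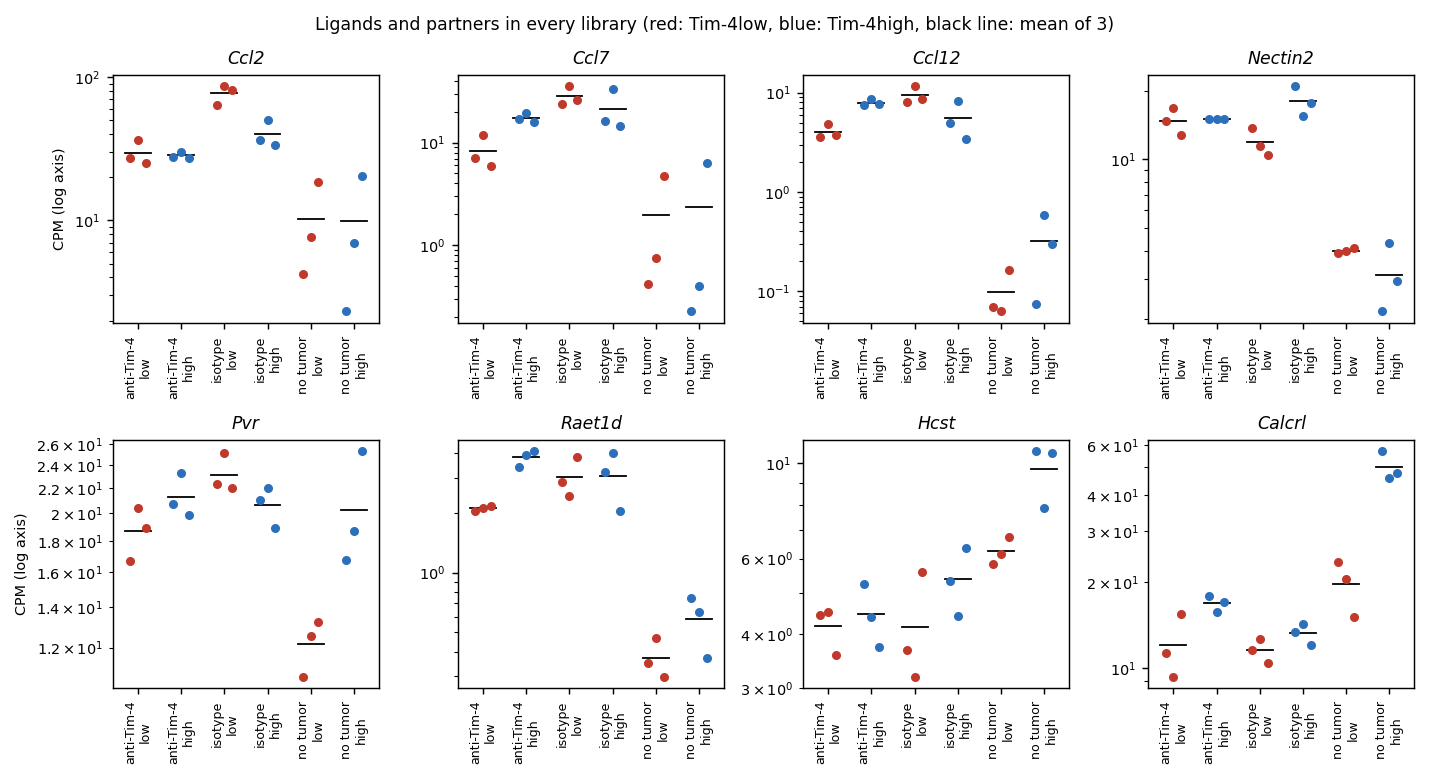
CPM on log axes of Ccr2 ligands (Ccl2, Ccl7, Ccl12), Cd226 ligands (Nectin2, Pvr), a Klrk1 ligand (Raet1d) and adaptor (Hcst) and the Ramp1 partner Calcrl in the 18 libraries, Tim-4low in red and Tim-4high in blue. The chemokines, Nectin2 and Raet1d are higher in tumor than in no-tumor groups, while Hcst and Calcrl are highest in no-tumor Tim-4high cells (mean 9.70 and 50.2 CPM).

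Among receptors of the SLAM family and the kinase Fyn, which work with Sh2d1b1-type adaptors, 4 of 11 tested genes rose and 1 fell in Tim-4low over Tim-4high cells without a tumor, and 5 rose and 1 fell with isotype. Over all tested genes 12.8% were higher and 11.8% lower without a tumor, and 11.3% were higher and 12.9% lower with isotype. Slamf9 rose in both (3.00 ± 0.32, adjusted p = 1.038e-05, and 1.60 ± 0.31, adjusted p = 0.00183), and fell in Tim-4low cells with the tumor (-1.44 ± 0.30, adjusted p = 0.000962). Itgb2, the partner chain of Itgax, was lower in Tim-4low cells in both conditions (-0.84 ± 0.13, adjusted p = 0.000219, and -0.67 ± 0.13, adjusted p = 0.00164). With the tumor it rose in Tim-4low cells (1.08 ± 0.13, adjusted p = 7.237e-06).

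Relatives of Ear2 and Fcrls were measured in the same libraries. Without a tumor 2 of 6 tested genes of the ribonuclease list rose in Tim-4low over Tim-4high cells (Ear1, adjusted p = 0.000212, and Rnase2a, adjusted p = 0.0351), and with isotype 3 rose and 1 fell, with Rnase2b among the higher ones (1.65 ± 0.39, adjusted p = 0.00640). Of the Fc receptor list 2 of 9 rose and 1 fell without a tumor, with Fcrlb among the higher ones (adjusted p = 0.000531), and 2 rose and 1 fell with isotype, with Fcgr1 among the higher ones (1.36 ± 0.29, adjusted p = 0.00370). The shares over all tested genes were 12.8% higher and 11.8% lower without a tumor, and 11.3% higher and 12.9% lower with isotype. Of 6 tested genes of the ribonuclease list, 5 rose in Tim-4low cells with the isotype tumor, and 6 rose in Tim-4high cells. Rnase4 had 81.7, 100.3 and 72.3 CPM in isotype tumor Tim-4low cells, against 8.69, 5.26 and 3.61 CPM without a tumor (3.87 ± 0.31, adjusted p = 1.644e-07). Fcgr1, the high-affinity IgG receptor, rose by 3.94 ± 0.33 (adjusted p = 2.214e-07) in Tim-4low cells. Of the 9 tested genes of that list 6 rose and 3 fell. The relatives that share sequence with Ear2, Ear1 and Ear10, reached at most 0.602 and 0.807 CPM in any library.

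Among the nuclear receptors and cofactors around Hr, 2 of 11 rose and 5 fell in Tim-4low cells with the isotype tumor, beside 25.2% higher and 24.6% lower over all tested genes. The vitamin D receptor Vdr had 15.4, 14.8 and 18.4 CPM in isotype tumor Tim-4low cells, against 3.14, 2.88 and 4.30 CPM without a tumor (2.23 ± 0.27, adjusted p = 8.056e-06). The thyroid hormone receptors Thra (-1.34 ± 0.17, adjusted p = 1.083e-05) and Thrb (-2.12 ± 0.28, adjusted p = 2.118e-05) fell.

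Other genes of small macrophages were mostly higher in Tim-4low cells without a tumor. There, 12 of 14 listed genes rose in Tim-4low over Tim-4high cells, among them Mgl2 (4.25 ± 0.53, adjusted p = 3.899e-05), H2-Eb1 (3.30 ± 0.45, adjusted p = 7.254e-05) and Irf4 (1.33 ± 0.18, adjusted p = 7.649e-05). With isotype 3 rose (Retnla, Lyz1 and Cx3cr1), and with anti-Tim-4 2 rose (Lyz1 and Retnla). With the isotype tumor over no tumor, 1 of the listed genes rose and 6 fell in Tim-4low cells, including Retnla (-4.53 ± 0.35, adjusted p = 9.613e-08), Lyz1 (-4.30 ± 0.30, adjusted p = 4.468e-08) and Irf4 (-2.87 ± 0.19, adjusted p = 2.703e-08). Of 12 genes of large macrophages, 11 fell in Tim-4low over Tim-4high cells both without a tumor and with isotype. Under anti-Tim-4, 1 fell (Cxcl13, -2.22 ± 0.45, adjusted p = 0.0260). This list includes Timd4, which encodes the sorted protein, so the direction of Timd4 was tied to the sort. Over all tested genes 12.8% were higher and 11.8% lower without a tumor. Under isotype these shares were 11.3% and 12.9%, and under anti-Tim-4 0.542% and 0.849%. The smaller counts of both lists under anti-Tim-4 thus stand beside smaller shares of all tested genes. The monocyte marker sum (6 genes) was 420 to 529 CPM in anti-Tim-4, 459 to 528 CPM in isotype and 152 to 271 CPM in no-tumor Tim-4low cells.

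Transcript shares of Ccr2 differed little between groups. Of the estimated Ccr2 counts, transcript Ccr2-202 held a mean of 49.0% to 55.6% and Ccr2-201 22.2% to 30.8% over the 6 groups. How the counting divided reads among overlapping transcripts is not stated in the sources used here.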

How the data were processed

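RNA-seq of sorted mouse peritoneal macrophages gave 18 libraries, 3 in each of 6 groups. Per the submitters' processing notes the tools were STAR and DESeq2 with the mm10 build, with versions and settings not given. Estimated counts for genes and for transcripts, as the authors deposited them, carried no normalization, and 62.78% to 66.78% of the gene values per library were whole (tolerance 0.001). The authors deposited their comparison of anti-Tim-4 with isotype in Tim-4high cells as p-values, FDR values and a signed fold change score, quoted here only where named. Their other comparison tables were not used.

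Estimated counts were rounded, and 16609 of 23511 genes were kept by filterByExpr in edgeR 4.0.16 (R 4.3.3). In any library at most 0.0878% of counts fell on genes left out, and library totals lay between 24530070 and 34110392. All 6 groups were fitted together with TMM scaling and edgeR's quasi-likelihood test, with Benjamini-Hochberg adjustment over all tested genes and a threshold of 0.05. TPM came from the deposited transcript counts and the transcript lengths, summed per gene. The fit was tested on simulated data. Alternatives were DESeq2 1.42.0, other scalings and filters, fits of fewer groups, a block for library number and each library left out.

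The members and gene lists were chosen with earlier results of these data known. The members were tested only in comparisons between tumor groups, although the no-tumor libraries share the fit and its dispersions. All 10 members are named whatever their values; of the other lists at most 4 genes per list and comparison, those with the smallest p among genes that passed, and direct partners of a member. Ear12, Ear14, Raet1a, Raet1b, Raet1c, H60a and Calcr were not analysed here.

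Library numbers come from the sample titles. Deviations from group means of same-numbered Tim-4low and Tim-4high libraries of 1 condition correlated at 0.308 to 0.6 in all 9 pairs, against -0.556 to 0.286 for other numbers, so the numbers were taken to pair the populations within a condition. Across conditions, same-numbered libraries correlated at -0.436 to 0.128 and were not taken as paired.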

Additional observations from a re-analysis of the deposited data

Results flagged for a closer look

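For 5 of the 85 tested partners of the 10 genes, the population gap differed between anti-Tim-4 and isotype (interaction test in edgeR, Benjamini-Hochberg adjustment). Over all tested genes 1.67% were higher and 1.26% lower in this test. Fcgr2b, the inhibitory IgG receptor, had 590, 617 and 635 CPM in Tim-4low and 885, 970.0 and 986 CPM in Tim-4high cells with anti-Tim-4, against 699.5, 749 and 594 CPM in Tim-4low and 563, 677 and 560.2 CPM in Tim-4high cells with isotype (log2 -0.81 ± 0.20, adjusted p = 0.0411). Rnase4 had 44.8, 64.1 and 79.9 CPM in Tim-4low and 88.9, 112 and 108 CPM in Tim-4high cells with anti-Tim-4, against 81.7, 100.3 and 72.3 CPM in Tim-4low and 37.6, 66.1 and 37.8 CPM in Tim-4high cells with isotype (log2 -1.55 ± 0.38, adjusted p = 0.0425). Both were thus lower in Tim-4low than in Tim-4high cells with anti-Tim-4, and not so with isotype.

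Fcrlb (log2 -2.73 ± 0.61, adjusted p = 0.0352) had 3.46, 6.54 and 6.69 CPM in Tim-4high cells with anti-Tim-4, against 0.921, 2.61 and 1.35 CPM with isotype. Rnase2b (-2.34 ± 0.54, adjusted p = 0.0371) had 6.14, 7.42 and 9.36 CPM in Tim-4high cells with anti-Tim-4, against 1.27, 3.804 and 1.501 CPM with isotype. Ear6 (4.08 ± 0.92, adjusted p = 0.0378) ran the other way in Tim-4low cells, with 3.67, 4.47 and 0.850 CPM with anti-Tim-4, against 0.571, 0.0945 and 0.640 CPM with isotype. The highest adjusted p over the alternatives was 0.1144 for Fcrlb, 0.1229 for Rnase2b, 0.1189 for Ear6, 0.1282 for Fcgr2b and 0.1345 for Rnase4. Without both isotype libraries 3 each of the 5 missed the threshold.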

How the results depend on the processing

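The tests between tumor groups rest on 3 libraries each, and low members (Ndnf, Ramp1, Sh2d1b1) on few reads in Tim-4high cells. The counts of members that passed were 7 with isotype (6 to 10 with each library left out) and 7 with anti-Tim-4 (3 to 7). Under isotype DESeq2 gave 9, the compared groups alone 8 and the 12 tumor libraries alone 9. Under anti-Tim-4 these fits gave 9, 10 and 8. Between anti-Tim-4 and isotype in Tim-4high cells the count of 0 became 1 in the 12 tumor libraries alone, 1 without both isotype libraries 3, and 0 to 1 with each library left out. The replicate block gave 9 genes in each population comparison and moved the interaction count to 1 (Ccr2), and it changed no other call of a member.

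Of the 85 tested partners, 36 differed between the populations with isotype (23 to 39 with each library left out). With anti-Tim-4 the count was 5 (0 to 6), with 9 in DESeq2, 11 in the compared groups alone, 11 in the tumor libraries alone, 20 with the block and 8 without both no-tumor libraries 1. Between anti-Tim-4 and isotype it was 0 in Tim-4low cells in edgeR, where 17 partners had an unadjusted p under 0.05, with 3 in DESeq2, 3 in the tumor libraries alone and 1 when both no-tumor libraries 1 were left out. In Tim-4high cells it was 10 (0 to 17), with 22 in DESeq2, 37 in the compared groups alone, 22 in the tumor libraries alone, 0 without both isotype libraries 3 and 17 without both no-tumor libraries 1. For the interaction it was 5 (0 to 18), with 20 in DESeq2, 14 in the compared groups alone, 14 in the tumor libraries alone, 30 with the block, 0 without both isotype libraries 3 and 14 without both no-tumor libraries 1. The cause of these shifts was not tested. Over all tested genes in edgeR, 11.3% were higher and 12.9% lower with isotype, and 0.542% and 0.849% with anti-Tim-4. Between anti-Tim-4 and isotype the shares were 0.223% and 0.102% in Tim-4low and 4.30% and 3.67% in Tim-4high cells. For the interaction they were 1.67% and 1.26%. Whether the partners exceeded these shares was not tested.

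Signs turned only for member values that had not passed. With single libraries left out, log2 values in Tim-4low cells ran from -0.30 to 0.13 for Cd226, -0.41 to 0.15 for Fcrls, -0.27 to 0.39 for Ear2, -0.40 to 0.22 for Hr and -0.38 to 0.0624 for Sh2d1b1. In Tim-4high cells they ran from -0.26 to 0.10 for Fcrls, -0.00317 to 0.24 for Ear2, -0.48 to 0.24 for Hr, -1.10 to 0.20 for Klrk1 and -0.26 to 1.04 for Sh2d1b1. For the interaction they ran from -0.0435 to 0.44 for Cd226, -0.36 to 1.06 for Itgax, -0.30 to 0.26 for Fcrls, -0.38 to 0.28 for Ear2, -0.27 to 0.46 for Hr, -0.19 to 0.98 for Ramp1, -0.69 to 0.61 for Klrk1 and -1.11 to 0.19 for Sh2d1b1. Without both isotype libraries 3, signs turned for Ear2 in Tim-4low cells (-0.0758), for Hr (0.0264) and Klrk1 (0.20) in Tim-4high cells, and in the interaction for Cd226 (-0.18), Fcrls (-0.10), Hr (-0.20), Ramp1 (-0.21) and Klrk1 (-0.36). Both alternatives that leave out a library pair were chosen after seeing the data.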
